A study of Mus musculus with 24 samples.

Results

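The 6 livers of conventional mice fed fish oil are described here by how much they differed from each other, gene by gene. They were chosen by their titles and make up 6 of the 24 livers measured. The question was one of spread within a group and not of means between groups: for each gene, the standard deviation (SD) among these mice was set against the SDs within the other 3 groups. It was read over the 9998 genes, of 19938 with a single symbol, whose mean log2 value over all samples was above 7.

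Liver RNA was measured on the MoGene 1.0 ST array in male wild-type C57Bl/6 mice, with 6 arrays in each of 4 groups. The groups were conventional mice fed fish oil, conventional mice fed lard, germ-free mice (raised without microbes) fed fish oil and germ-free mice fed lard. All of them ate a high fat diet with 45% of its energy as fat (from menhaden fish oil or from lard) for 11 weeks and were fasted for 4 hours before sampling. The labels give an age of 11 weeks beside 11 weeks of feeding, so that the age at sampling is not clear, and they name no litter, cage, hour of sampling or array batch. Below, a mouse given by number alone is a fish oil conventional mouse.

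Several arrays stood apart. Over the 300 most variable genes, the SD of the difference between fish oil germ-free mice 3 and 4 was 0.1083, against 0.3374 for the next closest of 60 pairs within groups and 1.6755 for the widest. That is less than for any other pair, so their mean was used as 1 sample (23 samples in all, n = 5 for fish oil germ-free). Mouse 3 lay farthest from its group, and mice 5 and 6 carried high acute phase genes, so the main counts are also given without mouse 3, without mice 3 and 4, and without mice 5 and 6. The share of all genes called wider was 17.2% with all mice and 10.2%, 7.53% and 12.1% in these settings, against which the counts below are to be read. Over all genes with all mice, the median ratio of the fish oil conventional SD to the pooled other SD was 1.57. In the same settings it was 1.38, 1.25 and 1.4, against which the ratios below are to be read. The 11 measured hepatocyte markers averaged 13.49 to 13.62 in the fish oil conventional mice and 13.47 to 13.61 elsewhere, as the liver label says. Of 16 neutrophil markers none exceeded log2 7, and their mean over 15 measured genes was 6.0 in mouse 5, 5.53 to 5.65 in the other 5 mice and 5.33 to 5.64 in the other groups. Array medians lay between 6.445 and 6.623.

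Mouse livers run on programs that can put mice of one strain in different states. In the circadian clock, the activator Arntl with its partner drives the repressor genes Per and Cry and the output regulators Dbp, Tef and Nr1d1, so that Dbp is high when Arntl is low. In the acute phase response, hepatocytes exposed to inflammatory cytokines make serum amyloid A, lipocalin 2 and haptoglobin. Fatty acid synthesis follows feeding and insulin, and the polyunsaturated fatty acids of fish oil are known to lower it.

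By their median SD, the fish oil conventional mice differed from each other more than the mice of any other group. The median SD over the 9998 genes was 0.204 log2 units in these mice, 0.122 in lard conventional, 0.120 in fish oil germ-free and 0.121 in lard germ-free mice. An SD above 1 was found for 71 genes in the fish oil conventional group and for 10, 7 and 8 genes in the others, in the same order. The fish oil conventional SD was the largest of the 4 for 6591 genes (65.92%), and the median ratio of this SD to the pooled SD of the other groups was 1.571.

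Each mouse was also given 1 value, its median distance from the mean of its group over the same genes. It was 0.117, 0.120, 0.214, 0.142, 0.147 and 0.170 log2 units in mice 1 to 6, with a mean of 0.152 ± 0.036 (SD, n = 6). In the 17 other samples it ran from 0.0706 to 0.124, with a mean of 0.0903 ± 0.0143 (SD). Mice 3 to 6 lay above every other sample, while mice 1 and 2 lay within the range of the lard conventional group, whose mouse 1 was at 0.124. The difference passed a two-sided exact permutation test over samples (p = 3e-05 of 100947 splits). Against each other group, exact permutation tests gave an adjusted p of 0.00649, with 0.00217 the smallest unadjusted p that 6 against 6 mice allow. Without the filter on level the adjusted p was 0.0714 against fish oil germ-free and 0.108 against lard germ-free mice. The fish oil conventional mice lay in close pairs over the 300 most variable genes. The SD of the difference was 0.5506 for mice 1 and 2, 0.625 for mice 3 and 4 and 0.7266 for mice 5 and 6. Their other pairs ran from 0.9604 to 1.6755, and pairs in the other groups, leaving out the averaged arrays, from 0.3374 to 1.1896. The tests above and the fit below count each mouse as independent, and the effect of this pairing was not tested.

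**Figure D1:**
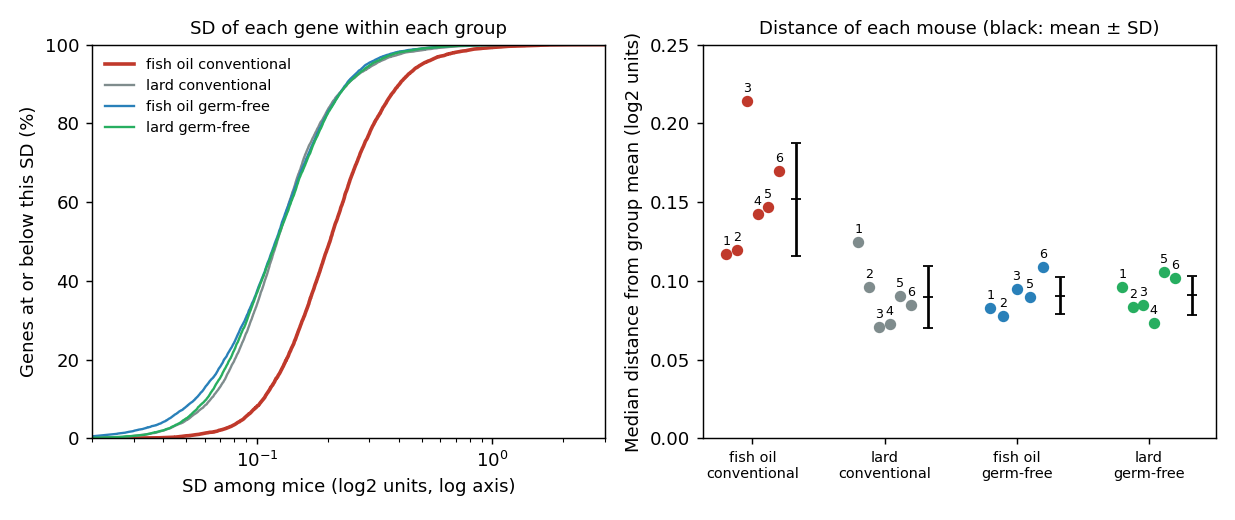
Left, the share of the 9998 genes at or below a given SD among mice (log2 units, log axis) in each of the 4 groups. Right, the median distance of each mouse from its group mean (log2 units), with mouse numbers and the mean ± SD of each group in black. The fish oil conventional curve lies to the right of the other 3, which nearly coincide, and mouse 3, at 0.214, is the farthest sample.

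By a limma fit to the distance of each mouse from its group mean (a Levene-type test), 1721 of 9998 genes were wider in the fish oil conventional mice than the mean of the other 3 groups (17.2%), and 5 were narrower (0.05%). At an unadjusted p under 0.05 these counts were 3699 and 86. Against single groups, 726 genes were wider than in lard conventional (7.26%), 591 than in fish oil germ-free (5.91%) and 776 than in lard germ-free mice (7.76%), and 307 were wider than in each of the 3. Narrower genes numbered 9 (0.09%), 17 (0.17%) and 12 (0.12%) in the same comparisons. With deviations from the group median, 113, 36 and 93 genes were wider than in the 3 groups, and an F test of variances called 0, 2 and 24 (2083 at an unadjusted p under 0.05 where it called 0). The count against the mean fell to 1021 without mouse 3, 753 without mice 3 and 4 and 1210 without mice 5 and 6, and to 515 when distances were taken from the group median. Of 54 called genes followed in this report, 39 lost the call with distances from the median, among them Saa1, Dbp, Fads1 and Cyp7a1. The mouse farthest from the mean was mouse 3 for 676 of the wider genes (39.28%, against 33.06% of all genes) and mouse 6 for 433 (25.16%, against 21.82%).

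The 5 narrower genes were Zfp87, Pdhb, Kcnk5, Gar1 and Gm4532, the last named after its values were seen. Zfp87, a zinc finger gene, lay between 7.72 and 7.79 in the 6 mice and between 7.59 and 8.48 elsewhere (adjusted p = 0.0393). Pdhb, a subunit of pyruvate dehydrogenase, lay between 9.27 and 9.48 and elsewhere between 9.35 and 10.10 (adjusted p = 0.0259). With distances from the group median 0 genes were narrower in the limma fit (16 at an unadjusted p under 0.05). Cyp4a14, a fatty acid omega-hydroxylase, had an SD of 0.19 in these mice and 1.25 in lard conventional mice, and was not called (adjusted p = 0.519).

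The genes with a high SD did not vary independently. Among the 6 mice, the first principal component held 54.3% of the variance over the 9998 genes, with mice 3 and 4 at one end (0.297 and 0.206) and mice 5 and 6 at the other (-0.213 and -0.228), while mice 1 and 2 lay near 0 (0.009 and -0.071). The 501 genes with an SD above 0.5 were grouped by their pattern over the 6 mice, and 458 fell into 4 clusters of at least 20 genes. Cluster A, of 259 genes, averaged 0.85 and 0.81 above the group mean in mice 3 and 4 and about 0.6 below it in mice 5 and 6 (-0.595 and -0.607). Cluster B, of 94 genes, was lowest in mice 3 and 4 (-0.945 and -0.524). Cluster C, of 82 genes, was high in mice 5 and 6 (0.76 and 1.06), and cluster D, of 23 genes, was low in those mice (-1.06 and -0.82). The clusters were drawn from genes picked for a high SD, so that they describe these 6 mice and carry no test.

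**Figure D2:**
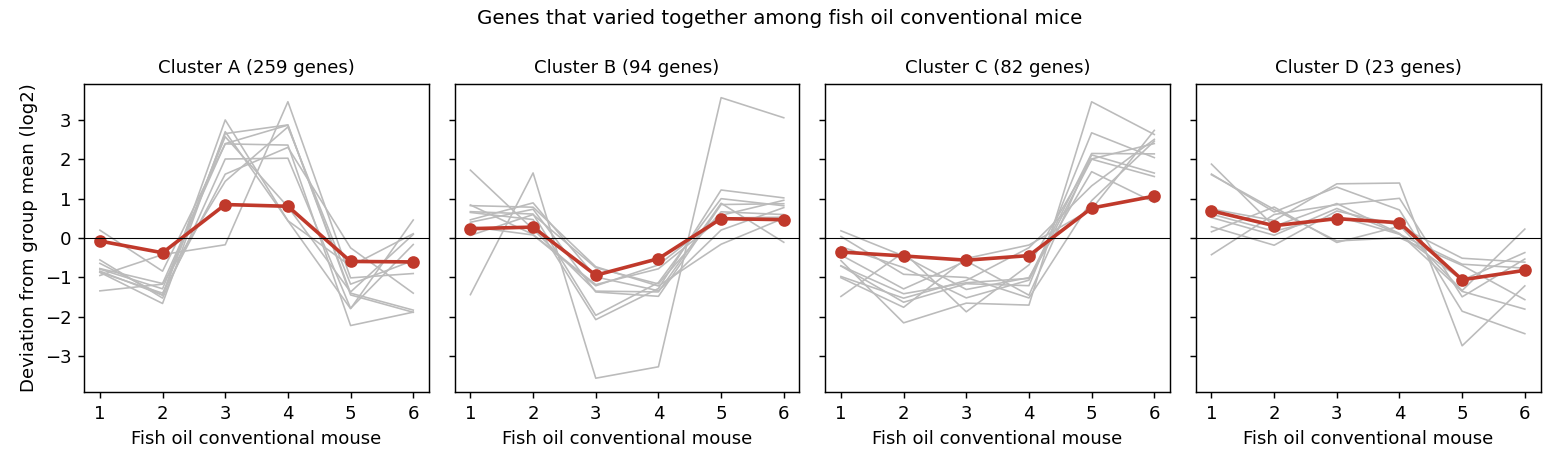
Deviation from the group mean (log2) in fish oil conventional mice 1 to 6 for the 4 clusters. Red points and lines are the mean over all genes of a cluster, and gray lines are up to 10 of its reported genes with the highest SD. Clusters A and B part mice 3 and 4 from the rest, and clusters C and D part mice 5 and 6.

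Clock genes were split between clusters A and B. Dbp, a transcription factor whose level swings widely over the day, lay at 7.97, 7.44, 10.46, 11.14, 8.59 and 7.44 in mice 1 to 6. Arntl, the activator that peaks opposite to it, lay at 9.52, 9.48, 7.97, 7.48, 8.54 and 9.20. Dbp was thus high and Arntl low in mice 3 and 4, the reverse held in mice 1, 2 and 6, and mouse 5 was in between. The difference of Dbp and Arntl, used below as a clock index, was -1.55, -2.04, 2.49, 3.66, 0.05 and -1.76. In the other groups it ran from 1.96 to 4.33 in lard conventional and from 3.6 to 4.59 in lard germ-free mice, while fish oil germ-free mice 5 and 6, at 0.12 and -0.77, lay apart from the rest of their group at 3.24 to 4.09.

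The spread of Dbp was called wider (SD 1.59 against 0.43, 1.36 and 0.08 in lard conventional, fish oil germ-free and lard germ-free mice, adjusted p = 0.0063), and that of Arntl was not (SD 0.85 against 0.65, 0.87 and 0.29, adjusted p = 0.305). Of 18 core clock genes above log2 7, 5 were wider (27.8%, against 17.2% of all genes), namely Dbp, Nr1d1, Bhlhe40, Cry1 and Nfil3, and their median SD ratio of 1.32 lay below the 1.57 of all genes. Wee1, a cell cycle kinase gene under clock control, lay at 7.23, 7.05, 9.02, 9.39, 6.44 and 6.55 and was wider (adjusted p = 0.011). Per1 (SD ratio 1.01), Per2 (0.70), Per3 (1.23) and Ciart (0.88), all repressors within the clock, were not called, since they also varied in other groups. Without mice 3 and 4 the 18 genes had a median ratio of 0.73 and 0 were wider, without mouse 3 there were 2 (ratio 1.28), and without mice 5 and 6 there were 7 (ratio 1.44).

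The promoters of Ciart, Per3 and Tef are shown because these cluster A genes also followed the clock index in the other groups. Each sequence is the 250 bases upstream of the annotated start in RefSeq (GRCm38.p6), 5′ to 3′ on the strand of the gene. Capitals mark the E-box CACGTG, which reads alike on both strands and is bound by Arntl and its partner, or the D-box TTATGNAA, searched on both strands, of the kind bound by Dbp and Tef.
Ciart promoter: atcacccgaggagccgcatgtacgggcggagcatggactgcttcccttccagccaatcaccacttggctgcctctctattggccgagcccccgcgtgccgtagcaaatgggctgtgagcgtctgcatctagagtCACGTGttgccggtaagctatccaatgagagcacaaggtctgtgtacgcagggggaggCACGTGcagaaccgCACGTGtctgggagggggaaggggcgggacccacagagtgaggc
Per3 promoter: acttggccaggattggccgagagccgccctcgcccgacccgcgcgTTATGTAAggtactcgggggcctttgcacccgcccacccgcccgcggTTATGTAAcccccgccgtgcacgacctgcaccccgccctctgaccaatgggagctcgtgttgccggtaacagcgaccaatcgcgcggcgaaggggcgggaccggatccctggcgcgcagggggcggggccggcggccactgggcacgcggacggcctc
Tef promoter: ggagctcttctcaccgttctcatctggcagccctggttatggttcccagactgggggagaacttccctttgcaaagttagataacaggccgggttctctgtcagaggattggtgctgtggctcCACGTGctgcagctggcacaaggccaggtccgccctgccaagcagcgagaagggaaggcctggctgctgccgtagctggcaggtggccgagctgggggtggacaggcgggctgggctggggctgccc
Ciart, at chr3:95882229-95882478 on the minus strand, held 3 E-boxes, at positions -116, -58 and -44 from the start. Per3, at chr4:151044666-151044915 on the minus strand, held 2 D-boxes, at -205 and -158. Tef, at chr15:81802423-81802672 on the plus strand, held 1 E-box, at -127. Of 27025 genes with a promoter in the table, 6.86% held an E-box in this window and 3.63% a D-box, and among 8083 of the 9998 genes the shares were 10.5% and 2.47%. In cluster A, 19 of 189 genes with a promoter held an E-box (10.1%) and 6 a D-box (3.17%), shares close to those of all genes above log2 7. Among 15 core clock genes 4 held an E-box (26.7%) and 2 a D-box (13.3%), and among 20 genes of cluster D 4 held an E-box (20%) and 5 a D-box (25%). A match describes these letters and is not a bound site.

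Which genes follow the clock index in other mice was asked in the 17 samples outside the group, with the group means removed. Limma called 104 of 9996 genes (1.04%), 90 rising with the index and 14 falling, and 2161 at an unadjusted p under 0.05. Per3 rose by 0.39 ± 0.04 log2 units per unit of the index (SE, adjusted p = 0.00019), and its slope in the fish oil conventional mice was 0.29 ± 0.03. Ciart rose by 0.74 ± 0.08 (adjusted p = 0.00019) and by 0.39 ± 0.06 in the fish oil conventional mice. Elovl3, a fatty acid elongase gene with a daily rhythm, fell by 0.32 ± 0.03 per unit (adjusted p = 0.00019) and by 0.15 ± 0.03 in these mice. Of the 104 genes, 91 had the same sign of slope in the fish oil conventional mice (87.5%), against 59.3% of all genes.

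The count was 355 with equal array medians, 53 with Dbp alone as the index and 12 with the mouse number as a block. Single samples moved it as well. It was 27 without lard conventional mouse 1, 62 and 63 without lard conventional mice 3 and 4, and 39, 34, 65, 39 and 31 without fish oil germ-free sample 1, 2, 3, 5 or 6. Without fish oil germ-free mice 5 and 6 together it was 77.

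Most genes of cluster A were not called on the index in the other groups. Of its 258 genes besides Dbp, 9 were called there, against 1.04% of all genes, namely Ciart, Per3, Tef, Wee1, Upp2, Dsg1c, Narf, Nmrk1 and Styx, and the median slope was 0.033 in the other groups and 0.204 in the fish oil conventional mice. Of 19 genes of fatty acid synthesis 0 were called, with 0.032 and 0.193. The difference between the slopes, a comparison added after the data were seen, was called by limma for 0 of 9996 genes (0.0%, 1583 at an unadjusted p under 0.05). Mfsd2a, a lysophospholipid transporter, came nearest of the genes named here (0.76 ± 0.14, adjusted p = 0.0841), and Rgs16, a regulator of G protein signalling, had a difference of 0.58 ± 0.14 (adjusted p = 0.12). The count rose to 53 when mouse 4 was left out, and to 17, 11 and 5 when mouse 5, 1 or 2 was.

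**Figure D3:**
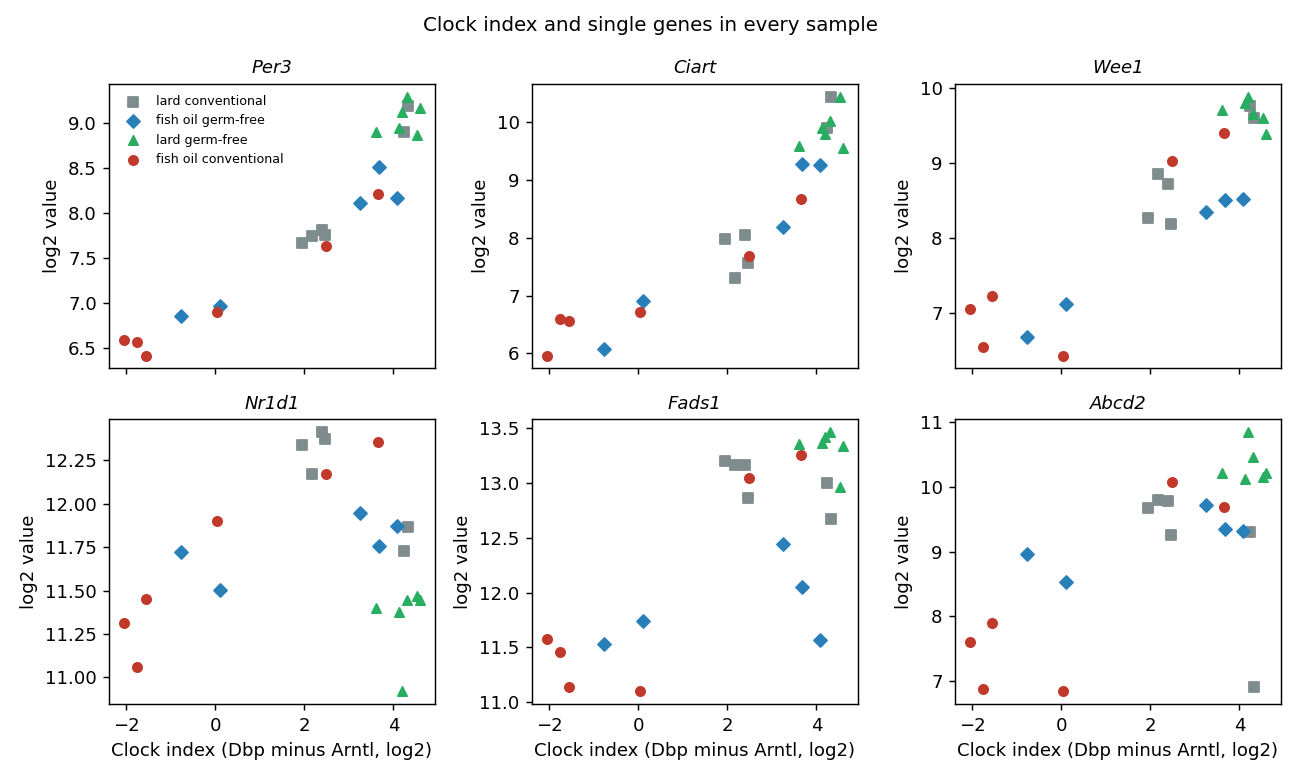
log2 values of 6 genes against the clock index (Dbp minus Arntl, log2) in the 23 samples, by group. Per3 and Ciart rose with the index both in the fish oil conventional mice and in the other groups. Their slopes were lower in the fish oil conventional mice, though no slope difference was called. For Fads1 the fish oil conventional mice split by the index and the other groups are set apart by diet.

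Genes of fatty acid synthesis were among the members of cluster A. Of 19 genes of fatty acid synthesis above log2 7, 14 had an SD above 0.5 in these mice and 12 of those were in cluster A, with Scd1 and Srebf1 in cluster D. By the test of spread 7 of 19 were wider (36.8%, against 17.2% of all genes), namely Fads1, Fads2, Scd1, Elovl5, Me1, Thrsp and Pklr, and their median SD ratio was 1.65. Without mouse 3 the number was 2 (10.5%, near the 10.2% of all genes) and the ratio 1.61. Without mice 3 and 4 they were 1 and 0.95, and without mice 5 and 6 they were 5 and 1.42.

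Fads1 encodes the delta-5 desaturase of polyunsaturated fatty acid synthesis. It lay at 11.14, 11.58, 13.05, 13.26, 11.10 and 11.45 in mice 1 to 6, with 12.67 to 13.20 in lard conventional and 11.53 to 12.44 in fish oil germ-free mice. Mice 3 and 4 were thus at the lard level and the other 4 at or below the lowest fish oil germ-free sample but for mouse 2, and the spread was wider (SD 0.97 against 0.21, 0.38 and 0.18, adjusted p = 0.000349). Thrsp, a regulator of lipogenesis, followed with 8.22, 7.25, 10.78, 10.80, 6.99 and 8.61 (adjusted p = 0.0369). The Thrsp call was lost in 17 of 45 alternative settings. Fasn, the fatty acid synthase, lay at 9.90, 10.79, 11.81, 12.03, 10.18 and 11.29 and was not called (SD 0.86 against 0.37, 0.56 and 0.66, adjusted p = 0.173), nor was the elongase gene Elovl6 (adjusted p = 0.181).

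Other genes of cluster A were high in mice 3 and 4 or in mouse 4. Mfsd2a had an SD of 2.08 against 0.54, 0.45 and 0.34 (adjusted p = 0.000142) and Rgs16 of 2.16 against 0.19, 1.01 and 0.34 (adjusted p = 0.000256). Abcd2, a peroxisomal transporter of very long chain fatty acids, lay at 7.89, 7.61, 10.08, 9.70, 6.84 and 6.87 (adjusted p = 0.0402). The Abcd2 call was lost in 23 of 45 alternative settings. Cidea, a lipid droplet protein gene, was high in mouse 4 (9.78), at 5.31 to 6.15 in the other 5 mice, and was not called (adjusted p = 0.427), as it ran from 5.37 to 9.97 in lard conventional mice. Its relative Cidec was high in both mice 3 and 4 (9.10 and 10.48, against 6.32 to 7.09) and was wider (adjusted p = 0.0232). For Mfsd2a, Rgs16, Fads1, Thrsp, Cidec and Abcd2 the call was lost without mice 3 and 4 (adjusted p from 0.326 to 0.954). As cluster A is high in those mice, this loss restates its pattern and is no separate evidence.

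Bile acid genes varied too: 7 of 16 were wider (43.8%, against 17.2% of all genes), with a median ratio of 2.09. Without mouse 3 the count was 1 and the ratio 2.08, without mice 3 and 4 they were 3 and 1.85, and without mice 5 and 6 they were 7 and 1.66. Cyp7a1, the rate-limiting enzyme of bile acid synthesis, lay at 8.58, 8.41, 10.35, 10.56, 7.90 and 8.50 in mice 1 to 6 (adjusted p = 0.0249). Nr1h4, the bile acid receptor FXR, lay at 10.38, 10.29, 11.11, 10.94, 9.81 and 10.53 (adjusted p = 0.0245), and Baat, which conjugates bile acids, at 11.55, 11.08, 11.71, 11.00, 11.04 and 11.21 (adjusted p = 0.00214). Without mouse 3 the adjusted p was 0.154 for Nr1h4 and 0.0854 for Baat. Cyp7a1 and Nr1h4 were highest in mice 3 and 4, whereas Baat was highest in mice 1 and 3 and lowest in mouse 4. Cholesterol synthesis genes were wider in 3 of 20 (15.0%), near the share of all genes. Mouse 5 was the lowest of the 6 mice for 16 of the 20, against 1243 of all 9998 genes. Of 12 cell cycle genes above log2 7, 0 were wider (median ratio 0.90).

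**Figure D4:**
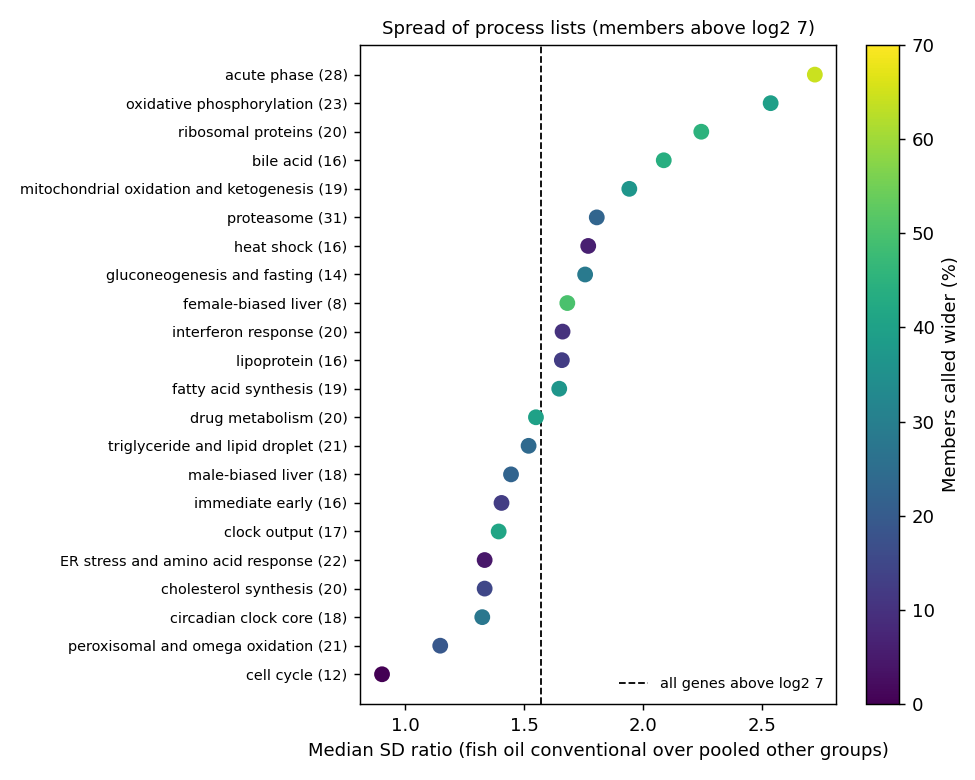
Median ratio of the SD in fish oil conventional mice to the pooled SD of the other groups for 22 process lists, with the number of members above log2 7 in brackets and the share called wider as colour. The dashed line is the median of all 9998 genes, 1.57, and the acute phase list lies highest, at 2.72.

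The acute phase genes had the highest ratio of spread of the 22 process lists, though not the highest SD: their median SD in these mice was 0.428, against 0.627 for fatty acid synthesis and 0.52 for the core clock. Of 28 above log2 7, 18 were wider (64.3%, against 17.2% of all genes) and 0 narrower, with a median SD ratio of 2.72. Mouse 5 or 6 was the highest of the 6 mice for 27 of the 28 (14 and 13, against 1974 and 1527 of all 9998 genes). The list mean was 11.29, 10.97, 11.10, 11.09, 12.38 and 12.42 in mice 1 to 6 and ran from 10.91 to 11.55 in the other samples, so that mice 5 and 6 lay above every other liver. Neutrophil markers were also highest in mouse 5 (6.0) but not in mouse 6 (5.65, as in mouse 1), and their part was not tested. Without mice 5 and 6 the count was 2 and the ratio 1.15, and without mice 3 and 4 they were 16 and 2.85.

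Saa1 and Saa2 encode the acute phase serum amyloid A proteins. Saa1 had an SD of 2.43 against 0.64, 0.46 and 0.70 (adjusted p = 0.000256). Saa2 lay at 9.83, 8.91, 9.38, 9.33, 13.21 and 12.58, with an SD of 1.86 (adjusted p = 0.00194). The genes are near-identical copies, and how far their probe sets share signal was not tested. Their promoters are shown because both genes were high in the same pair of mice. These are the 250 bases upstream in RefSeq (GRCm38.p6), at chr7:46742981-46743230 on the minus strand for Saa1 and chr7:46751583-46751832 on the plus strand for Saa2, and neither held an E-box or a D-box, so no letters are in capitals.
Saa1 promoter: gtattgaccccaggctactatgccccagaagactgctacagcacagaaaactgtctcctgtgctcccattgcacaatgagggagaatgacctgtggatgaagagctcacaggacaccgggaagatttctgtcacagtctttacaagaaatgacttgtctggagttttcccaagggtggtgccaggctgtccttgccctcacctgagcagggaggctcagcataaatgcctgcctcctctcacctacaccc
Saa2 promoter: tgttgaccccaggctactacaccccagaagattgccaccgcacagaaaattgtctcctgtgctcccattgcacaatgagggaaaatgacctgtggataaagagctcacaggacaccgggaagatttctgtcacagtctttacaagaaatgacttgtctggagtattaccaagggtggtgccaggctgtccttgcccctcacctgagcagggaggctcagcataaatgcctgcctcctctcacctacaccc
In an alignment of both, 238 of 251 columns were identical (94.8%).

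Other secreted acute phase proteins followed. Lcn2, the siderophore-binding lipocalin 2, lay at 9.61 to 10.32 in mice 1 to 4 and at 13.17 and 13.16 in mice 5 and 6 (adjusted p = 0.00225), and Orm2, an acid glycoprotein, at 10.10, 9.24, 9.95, 9.08, 12.64 and 12.18 (adjusted p = 0.00467). Hp, haptoglobin, which binds free haemoglobin, moved less but was more even elsewhere: it lay at 13.07, 13.11, 13.04, 12.94, 13.69 and 13.68, against 13.11 to 13.29 in all other samples (SD ratio 6.88, adjusted p = 0.000105). Lbp, the lipopolysaccharide-binding protein gene, lay at 11.97, 12.05, 11.56, 11.76, 12.91 and 12.60 (SD ratio 5.25, adjusted p = 0.00125). For all 4 genes, mice 5 and 6 were above every other liver of the series.

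Further genes of cluster C were high in the same mice. Asns, asparagine synthetase, a target of the amino acid response, lay at 8.10, 9.22, 7.71, 8.90, 11.59 and 11.98, with 6.93 to 8.84 in the other groups (SD ratio 4.22, adjusted p = 0.00059). Mt2, a metal-binding metallothionein, lay at 10.16, 9.61, 10.06, 10.89, 12.46 and 13.64 (adjusted p = 0.0369). Of 45 alternative settings, the Mt2 call was lost in 20 and the difference turned sign in 1. Gadd45g, a stress-inducible gene, was at 10.64 and 10.20 in mice 5 and 6 and 7.12 to 8.42 in the others (adjusted p = 0.00964), while all fish oil germ-free samples lay at 9.84 to 11.03. Myc behaved likewise (9.76 and 8.98 against 6.77 to 8.26, and 9.32 to 10.94 in fish oil germ-free samples) and was not called (adjusted p = 0.326). Fos, an immediate early gene, was high in mouse 6 at 9.38 and lay at 6.47 to 6.88 in the other 5 (adjusted p = 0.116). Asns was counted in the list for gluconeogenesis and fasting, of which 4 of 14 were wider (28.6%, against 17.2% of all genes). Of the 22 members of the list for ER stress and amino acid shortage, which does not hold Asns, 1 was wider (4.55%), namely Hyou1.

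Some enzyme genes were low in mice 5 and 6. Cyp2b9, a cytochrome P450 gene higher in female than in male liver, lay at 12.73, 11.77, 12.40, 11.82, 9.25 and 8.68, with 11.40 to 13.13 in the other groups (SD ratio 3.52, adjusted p = 0.000349). Scd1, the delta-9 desaturase, lay at 13.36, 13.07, 14.00, 14.02, 9.89 and 11.41 (SD 1.64 against 0.10, 0.80 and 0.06, adjusted p = 0.00112). On lard Scd1 lay at 13.76 to 14.09, near the array maxima of 14.29 to 14.50. Krt23, a keratin gene, lay at 8.40, 7.52, 6.72, 6.80, 6.10 and 5.23 (adjusted p = 0.0215). The Cyp2b9 and Scd1 calls were lost without mice 5 and 6 (adjusted p = 0.82 and 0.386), where Krt23 kept its call.

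Markers of other cells also differed among the mice, and their part in the results was not tested. Of 17 Kupffer cell and macrophage markers above log2 7, 3 were wider (17.6%, near the 17.2% of all genes), namely Csf1r, C1qa and Lyz2. The count was 0 without mouse 3, 0 without mice 3 and 4 and 6 without mice 5 and 6. The mean over all 20 markers was 9.28, 9.20, 8.62, 8.76, 9.37 and 9.10 in mice 1 to 6, within a range of 8.03 to 9.10 in the other groups for mice 3, 4 and 6. Mouse 3 was the lowest of the 6 for 12 of the 17 (70.6%, against 28.9% of all genes). Mouse 6 was the lowest for 15 of 18 endothelial and 12 of 19 stellate cell and fibroblast markers, against 2483 of all 9998 genes. The Kupffer cell gene Clec4f lay at 10.90, 10.56, 10.30, 10.24, 11.01 and 10.63 and was not called (adjusted p = 0.381). In bulk tissue, fewer cells of a type and less RNA per cell cannot be told apart.

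**Figure D5:**
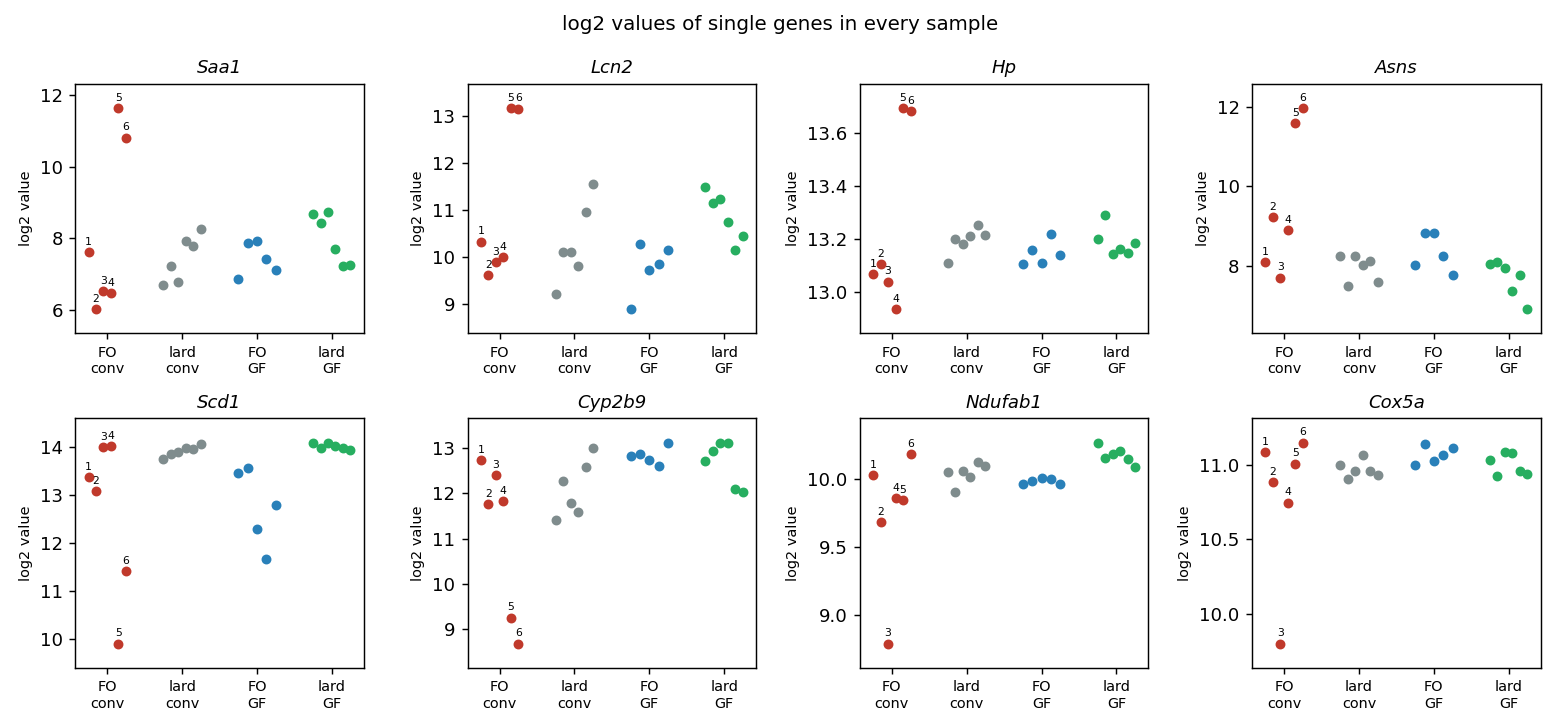
log2 values of 8 genes in every sample of the fish oil conventional (FO conv), lard conventional (lard conv), fish oil germ-free (FO GF) and lard germ-free (lard GF) groups, with mouse numbers in the fish oil conventional group. Mice 5 and 6 stand apart for Saa1, Lcn2, Hp, Asns, Scd1 and Cyp2b9, and mouse 3 for Ndufab1 and Cox5a.

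The gene with the highest SD of all in these mice was Moxd1, a monooxygenase-like gene of cluster B. It lay at 7.57, 10.66, 5.45, 5.74, 12.57 and 12.06 (SD 3.17 against 2.09, 1.66 and 0.20, adjusted p = 0.00693). Its levels in mice 3 and 4 were those of the lard germ-free mice (5.34 to 5.90), and those in mice 5 and 6 lay above every other liver. The call was lost without mice 3 and 4 (adjusted p = 0.488) and without mice 5 and 6 (0.323). Selenbp2, a selenium-binding protein gene, had a smaller step, at 12.21, 12.54, 10.44, 10.33, 12.66 and 12.68 (adjusted p = 0.00552). Foxq1, a forkhead factor gene, lay at 10.03, 9.85, 7.31, 8.10, 10.60 and 10.40 (adjusted p = 0.0217). Cyp7b1, an oxysterol hydroxylase gene more expressed in males, lay at 13.13, 13.18, 12.06, 11.83, 13.25 and 13.20 and was not called (adjusted p = 0.0597). Mice 3 and 4 were the low pair for each of these genes.

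The 3 wider genes with the highest ratios had even levels elsewhere. Ndufab1, an acyl carrier subunit of respiratory complex I, lay at 10.03, 9.68, 8.79, 9.86, 9.85 and 10.18, against 9.90 to 10.27 in all other samples (SD ratio 8.19, adjusted p = 0.0158). Rps28, a protein of the small ribosomal subunit, lay at 10.78, 10.44, 9.26, 10.06, 10.98 and 11.35 (ratio 8.05, adjusted p = 0.0024). Cox5a, a subunit of cytochrome c oxidase, lay at 11.09, 10.89, 9.80, 10.75, 11.01 and 11.15, against 10.91 to 11.14 elsewhere (ratio 8.01, adjusted p = 0.0178, and 0.0766 without mouse 3). Mouse 3 was the lowest of the 6 for all 3.

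Oxidative phosphorylation and ribosomal protein genes shared the high ratios. Of 23 oxidative phosphorylation genes 9 were wider (39.1%, median ratio 2.54), and of 20 ribosomal protein genes 9 (45.0%, median ratio 2.25), against 17.2% of all genes. Without mouse 3 the counts were 6 and 7, with ratios of 2.36 and 2.25. Without mice 3 and 4 they were 5 and 3 (ratios 2.51 and 2.03), and without mice 5 and 6 they were 8 and 6 (2.62 and 1.80). Mouse 3 was the lowest of the 6 for 9 of the 23 and 8 of the 20, against 28.9% of all genes. Mouse 2 was the lowest for 6 and 9, against 1314 of all 9998 genes. The oxidative phosphorylation mean was 11.601, 11.235, 11.211, 11.346, 11.407 and 11.475 in mice 1 to 6, and 11.457 to 11.612 in the other groups. The ribosomal protein mean was 10.875, 10.558, 10.502, 10.625, 10.931 and 11.051, against 10.645 to 11.094. Mice 2 and 3 were thus the lowest 2 for both lists.

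Small nucleolar RNAs, which guide the modification of ribosomal RNA, went the other way in mouse 3. This list was added after the data were seen. Over 27 of them above log2 7 the mean was 8.54, 8.50, 10.09, 9.25, 8.79 and 9.19 in mice 1 to 6, and 8.47 to 9.30 in the other groups. Snord49b lay at 10.04, 9.25, 13.61, 11.35, 10.20 and 11.02, against 9.38 to 10.77 in all other samples (adjusted p = 0.0298). Of the 27, 9 were wider (33.3%, against 17.2% of all genes). The number was 2 without mouse 3 (7.41%, against 10.2%), 1 without mice 3 and 4 and 11 without mice 5 and 6, and Snord49b lost its call without mouse 3 (adjusted p = 0.109). Over 3245 probe sets above log2 7 with no gene listed, the median distance was 0.284 in mouse 3 and 0.131 to 0.170 in the other 5. RNA quality is not given in the labels, and its part in the values of mouse 3 was not tested.

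The spread was also tested after the clock index or Saa1 was taken out of each group by regression. With the clock index removed, 2353 genes were wider and the median SD ratio was 1.60. With Saa1 removed, 1607 were wider and the ratio was 1.54. Single genes did lose their calls: with the index removed the adjusted p was 0.161 for Fads1, 0.155 for Mfsd2a and 0.878 for Cyp7a1, and with Saa1 removed it was 0.352 for Lcn2 and 0.188 for Hp. These genes had been seen to vary with the index or with Saa1 in the same mice, so their losses restate that pattern.

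Genes that follow Saa1 within the other 3 groups numbered 16 of 9997 by limma (0.16%), with 1899 at an unadjusted p under 0.05. They included Saa2 (0.92 ± 0.13 log2 units per unit of Saa1, adjusted p = 0.012) and Orm2 (0.80 ± 0.11, adjusted p = 0.012), with slopes of 0.76 and 0.61 in the fish oil conventional mice. Of the 16 genes, 10 had the same sign of slope in the fish oil conventional mice (62.5%), against 42.6% of all genes. Of the acute phase list, Saa2 and Orm2 were the 2 of 27 called. The count rested on single samples: it was 579 without fish oil germ-free sample 1, 404 and 77 without lard conventional mouse 3 and 4, 0 without lard germ-free mouse 5 or 6, and 1 to 10 without lard conventional mouse 1, 2 or 6, fish oil germ-free sample 2 or lard germ-free mouse 1, 3 or 4.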

How the data were processed

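The 24 liver arrays were placed in 4 groups of 6 by their titles. The deposited log2 values were made by the authors with RMA at gene level (background correction, quantile normalization, median polish; apt 1.1.2800.28061, array library r4), per the file headers. Quantile normalization hides a change shared by most genes, and median polish can blend gene family members that share probes. Arrays give no read depth, so the number of mice limits the precision, and nothing says that mice came from separate litters or cages, so p-values measure the spread between these samples.

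Of 35556 probe sets, 21789 were paired with 1 symbol, 1621 with several and 12146 with none listed. Each gene was read from its probe set of highest mean (999 genes had several), giving 19938 genes. The absolute deviation of each mouse from its group mean, times the square root of n/(n - 1), was fitted with 4 group means in limma 3.58.1 (R 4.3.3; lmFit, eBayes) and adjusted by Benjamini-Hochberg over all genes. Genes were called at an adjusted p under 0.05 and counted above a mean log2 of 7. Values after ± are SE for slopes and SD for distances. Distances were compared by exact permutation tests (Python 3.11.15, scipy 1.17.1). Clusters used average linkage of 1 minus Pearson's r, with the tree divided at a height of 0.4. Tested on simulated data, the fit called 4% of genes with a true SD ratio of 2, 34% at 3 and 64% at 6. There were 50 genes at each of these ratios. At a ratio of 1 the fit called 0.112% of 9798 genes. In the measured data 3129 of 9998 genes (31.3%) had an observed SD ratio above 2. Whether the rates given here hold for the measured data was not tested.

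The members, lists and tests were chosen with earlier results of these data known. Genes were named by a rule: the 12 wider genes with the highest SD and the 12 with the highest ratio, the 4 narrower with the lowest ratio, up to 4 of each list and cluster by SD, the 6 called with the smallest p per slope comparison, and 20 fixed genes, of which not all are described. Other genes named are list members chosen after their values were seen. Alternatives were other deviations, models, filters, scalings, probe set rules, the mouse number as a block, indices regressed out, and mice left out.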

Additional observations from a re-analysis of the deposited data

Results flagged for a closer look

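By Dixon's test 103 sets of 5 or 6 values were examined. They were genes named here and list means in the fish oil conventional mice, and the distances of the mice in each of the 4 groups. In 6 sets 1 mouse lay far from the other 5, where chance flags about 1 in 20 (5.2 expected). Many of these genes were named for a high SD and varied together, so the expected number is only a rough guide. Mouse 4 was apart for Cidea, at 9.78 against 5.31 to 6.15, and for the mean of the lipoprotein list, at 12.25 against 12.05 to 12.11. Mouse 6 was apart for Fos, at 9.38 against 6.47 to 6.88, and for the cholesterol synthesis gene Sqle, at 9.13 against 6.98 to 7.56. Mouse 3 was apart for Ndufab1, at 8.79 against 9.68 to 10.18, and for Cox5a, at 9.80 against 10.75 to 11.15.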

How the results depend on the processing

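Against the mean of the other groups, the 1721 wider genes became 515 with deviations from the group median and 753 without mice 3 and 4, and 1021 to 2265 with 1 sample left out. The 5 narrower genes became 0 with the group median, 13 on a log scale, 18 when only genes above log2 7 were fitted, 14 above log2 6, 3 above 8, 24 with no filter, 2 with equal array medians, 10 with the 75th percentile regressed out, 3 after a second quantile normalization, 18 without the clock index, 8 without Saa1, 10 without fish oil germ-free mice 5 and 6, 2 without mice 3 and 4, 1 without lard germ-free mice 5 and 6, and 1 to 10 with 1 sample left out. The median SD ratio of 1.571 was 1.378 to 1.634 with 1 sample left out. It was 1.197 with no filter on level, 1.372 above log2 6 and 1.712 above 8. Without mice 3 and 4 it was 1.253 and without mice 5 and 6 it was 1.403. With the 75th percentile regressed out it was 1.769.

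Against lard conventional mice, 726 became 113 with the group median, 0 by an F test of variances (2083 at an unadjusted p under 0.05), 1152 with a trended and robust fit, 1157 when only genes above log2 7 were fitted, 1340 without the clock index and 434 without mice 3 and 4. It was 396 to 1364 with 1 sample left out, and moved most without mouse 1 (1364) or 2 (1298) and lard conventional mice 2 (470), 3 (396), 4 (410), 5 (480) and 6 (465). Against fish oil germ-free mice, 591 became 36, 2, 1029 and 924 under the first 4 of these, 352 with equal medians, 1250 with the 75th percentile regressed out, 965 after a second quantile normalization, 989 with 24 separate arrays, 1538 without the clock index, 175 without fish oil germ-free mice 5 and 6, 383 without mice 3 and 4, and 290 to 1194 with 1 sample left out (1194 and 1193 without mouse 1 or 2, and 302, 384, 301, 290 and 310 without fish oil germ-free sample 1, 2, 3, 5 or 6). Against lard germ-free mice, 776 became 93 with the group median, 24 by the F test, 1196 with the trended fit, 436 with equal medians, 1450 with the 75th percentile regressed out, 415 without mice 3 and 4, 482 without lard germ-free mice 5 and 6, and 488 to 1360 with 1 sample left out (1360, 1354 and 502 without mouse 1, 2 or 3, and 488, 488 and 505 without lard germ-free mouse 1, 3 or 4). The cause of these shifts was not tested.

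The 104 genes following the clock index became 355 with equal medians, 53 with Dbp alone and 27 to 109 with 1 sample left out. The 16 following Saa1 became 33 with equal medians, 140 with the mean of Saa1 and Saa2 and 0 to 579 with 1 sample left out. The slope difference gave 2 genes with equal medians and 0 to 53 with 1 sample left out, with 1 each without fish oil germ-free sample 6 or lard conventional mouse 5. The difference in distance was 0.04407 to 0.07147 with 1 sample left out, 0.04474 to 0.07214 against lard conventional, 0.04374 to 0.07114 against fish oil germ-free and 0.04367 to 0.07107 against lard germ-free mice. With no filter it was 0.02344 (exact permutation test, adjusted p = 0.0714) and 0.02159 (adjusted p = 0.108) against the last 2 groups.

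With the mouse number as a replicate block, the count of wider genes was 1662, of narrower 4, and of genes following the clock index 12. Over 33 pairs the deviations of same-numbered samples correlated at -0.414 to 0.24, with 8 above 0.1. All 6 pairs of fish oil conventional and lard germ-free mice lay above 0 (0.026 to 0.221), 4 of them above 0.1. The labels do not say that a number marks shared animals, and it was not used as a block in the reported values.

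Of 77 genes followed, 54 were called, and Cyp2c38, Rps28, F13b and Ndufa1 kept the call under all 45 alternatives. With deviations from the group median 39 of the 54 calls were lost, and by the F test of variances 22. In the limma fit to deviations from the median, the adjusted p was 0.078 for Saa1, 0.294 for Lcn2 and 0.0938 for Hp. It was 0.254 for Dbp, 0.093 for Mfsd2a, 0.179 for Thrsp and 0.434 for Cyp7a1. The difference in deviation turned sign without mice 3 and 4 for Rgs16 (-0.06954), Cidec (-0.3974), Dbp (-0.1103), Bhlhe40 (-0.04724), Wee1 (-0.1408), Me1 (-0.1471), Cyp7a1 (-0.1532), Selenbp2 (-0.1413), Foxq1 (-0.118), Lyz2 (-0.0194) and C1qa (-0.04417). It did so without mice 5 and 6 for Saa1 (-0.01154), Saa2 (-0.2482), Lcn2 (-0.2891), Mt2 (-0.154) and Gadd45g (-0.004691), with Saa1 regressed out for Saa2 (-0.2041), Lcn2 (-0.1612), Gadd45g (-0.1456) and Orm2 (-0.03018), and with the clock index regressed out for Cidec (-0.07065), Me1 (-0.05148), Nr1d1 (-0.002387) and Cry1 (-0.02035).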

Other observations

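Among drug metabolism genes, which were not described above, 8 of 20 above log2 7 were wider (40%, against 17.2% of all genes). Their median SD ratio of 1.55 lay near the 1.57 of all genes. The count was 5 without mouse 3, without mice 3 and 4 or without mice 5 and 6. Cyp2c38, a cytochrome P450 of the Cyp2c family, lay at 8.97, 7.93, 11.16, 11.13, 6.55 and 6.89 in mice 1 to 6 (SD ratio 4.40, adjusted p = 0.000576), and how far its probe set shares signal with related genes was not tested. Mice 3 and 4 were high, and mice 5 and 6 lay below every other liver. F13b, the carrier subunit of clotting factor XIII, lay at 11.72, 11.41, 11.94, 11.49, 11.01 and 10.87, against 11.35 to 11.56 in the other groups (SD ratio 7.39, adjusted p = 0.00213). Dnajc12, a co-chaperone gene, lay at 8.25, 7.78, 7.62, 7.93, 9.90 and 9.33, and mice 5 and 6 were above all other samples (7.77 to 8.26; adjusted p = 0.000128).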
